A study of Mus musculus with 55 samples.

Results

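Genomic imprinting was followed here through 10 imprinted genes, H19, Igf2r, Peg10, Peg3, Impact, Snrpn, Mest, Grb10, Kcnq1ot1 and Meg3, in mouse embryonic stem (ES) cells that left mitosis with or without the chromatin protein CTCF. The genes were chosen by name, and their values were read in each of the 2 deposited tables of precursor messenger RNA (pre-mRNA) levels. Of the 10 genes, 9 were listed in at least 1 table: 9 of the 9911 genes of the CCNA-GFP table and 8 of the 10237 genes of the CTCF-AID table, out of 10574 genes listed in either. H19 was listed in neither table and Mest only in the CCNA-GFP table, so they are not described further where they were not listed.

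The data were 55 total RNA libraries from ES cells grown in serum with LIF, 19 from the CCNA-GFP line, which carries a cyclin A-GFP cell cycle reporter, and 36 from the CTCF-AID line, a single clone in which CTCF carries an auxin-inducible degron. Both lines derive from E14Tg2a, an inbred 129/Ola line, so the maternal and the paternal copy of a gene could not be told apart and each value sums both copies. Cells were held with 10 µM RO-3306, a CDK1 inhibitor, for 4 h, then with 50 ng/ml nocodazole for 4 h, collected by shake-off as mitotic cells, and released for 20, 30, 40, 50, 60, 90 or 120 min, and asynchronous cells were taken in parallel. The CCNA-GFP cells received no auxin and included all of these times, with 1 library at 50 min. The CTCF-AID cells included all but the 30 min time, each with and without 0.5 mM of the auxin indole-3-acetic acid (IAA), which triggers degradation of the tagged CTCF. IAA was added for the last 2 h of the nocodazole block and kept after release, and asynchronous cells received it for 4 h in parallel. Mitotic and asynchronous groups had 3 libraries and the other groups 2, namely replicates 1 and 2 for the 20, 40, 60 and 120 min times and replicates 1 and 3 for the others. The study describes the replicates of each line and condition as independent.

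In imprinting, a gene is transcribed mainly from the copy inherited from 1 parent, and DNA methylation laid down in the egg or sperm at an imprinting control region keeps the copies apart. CTCF binds several such regions on the unmethylated copy, the textbook case being the region between H19 and Igf2, where bound CTCF insulates Igf2 from its enhancers. Many imprinted genes steer growth of the embryo and placenta, and the mark is known to be fragile in cultured ES cells.

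Among the 9 listed genes, Peg3, Peg10, Impact, Snrpn, Mest and Kcnq1ot1 are transcribed from the paternal copy and Igf2r, Grb10 and Meg3 from the maternal copy in most tissues. Values are in the unit TPM, transcript abundance of the pre-mRNA isoform relative to all transcripts, which stands for recent transcription, and are already scaled for transcript length, so that levels can be set beside each other within a table. Levels between genes below are all on this length-scaled TPM scale. Depth is unknown, since TPM keep no read counts. Changes over time were tested with limma on log2(TPM + 1), a scale that understates the change of low genes. Replicates entered the fit as blocks, p-values were adjusted over all genes of the table by the Benjamini-Hochberg method, and a gene was called when its adjusted p was below 0.05. The 2 tables were normalised separately, so the lines are set side by side without a test.

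The promoters shown here belong to the member with the steepest rise (Peg3), to the 2 listed long noncoding RNAs (Meg3 and Kcnq1ot1) and to the member listed in 1 line only (Mest). Each run is the 250 bases before a RefSeq transcript start on build GRCm38.p6, read 5′ to 3′ on the gene's strand. Capitals mark, on either strand, the cyclic AMP response element TGACGTCA, the CCAAT box, and TGCCGC, the hexamer that ZFP57 recognises at imprinting control regions when it is methylated.
Peg3, chr7:6730420-6730669, minus strand: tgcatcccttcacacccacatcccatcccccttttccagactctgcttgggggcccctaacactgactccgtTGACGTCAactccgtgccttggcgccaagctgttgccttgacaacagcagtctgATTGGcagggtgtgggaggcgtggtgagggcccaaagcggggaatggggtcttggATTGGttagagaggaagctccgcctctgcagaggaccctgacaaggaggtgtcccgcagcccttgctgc
Meg3, chr12:109540746-109540995, plus strand: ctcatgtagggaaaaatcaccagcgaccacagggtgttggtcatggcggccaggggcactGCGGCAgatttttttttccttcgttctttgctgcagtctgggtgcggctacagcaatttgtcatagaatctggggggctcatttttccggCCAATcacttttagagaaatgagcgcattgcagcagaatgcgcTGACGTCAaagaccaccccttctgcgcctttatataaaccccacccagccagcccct
Kcnq1ot1, chr7:143296548-143296797, minus strand: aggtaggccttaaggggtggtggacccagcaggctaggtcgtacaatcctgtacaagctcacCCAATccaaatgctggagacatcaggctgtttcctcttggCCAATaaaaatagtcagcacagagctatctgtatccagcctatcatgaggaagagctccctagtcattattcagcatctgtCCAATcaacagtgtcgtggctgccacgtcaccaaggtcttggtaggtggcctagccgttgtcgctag
Mest, chr6:30737800-30738049, plus strand: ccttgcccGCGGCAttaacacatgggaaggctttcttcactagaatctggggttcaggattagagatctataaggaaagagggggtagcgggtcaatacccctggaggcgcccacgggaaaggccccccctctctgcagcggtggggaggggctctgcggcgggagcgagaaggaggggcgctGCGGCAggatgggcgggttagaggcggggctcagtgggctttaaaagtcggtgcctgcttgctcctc
The Peg3 and Meg3 promoters both held TGACGTCA, which 1.56% of 32536 RefSeq mouse promoters of this length contained, and its first base lay 178 bases before the Peg3 start and 57 bases before the Meg3 start. CCAAT, found in 33.8% of promoters, occurred in those of Peg3 and Kcnq1ot1 more than once and in that of Meg3 once. TGCCGC, found in 8.75% of promoters, occurred in those of Meg3 and Mest. RefSeq gives Meg3 and Mest further starts, 2 promoters for Meg3 and 3 for Mest in all: the second of Meg3 held none of these 3 motifs, and of those of Mest the first held no TGCCGC, while the third starts 3 bases after the one shown and held the same matches. The core of the CTCF motif, searched on both strands and present in 7.22% of promoters, had no match in these 4 windows, which says only that its letters were absent there. A match of letters is a description and not a shown binding site.

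Marker genes of ES cells were present in both lines. Of 12 ES cell markers, 11 were listed in each table, Sox2 being the exception, and their summed level in asynchronous cells was 76.3 to 149.9 TPM in CCNA-GFP and 83.6 to 166.7 TPM in CTCF-AID cells. None of 7 extraembryonic endoderm markers was listed in either table. Of 8 fibroblast markers, 0 were listed in CCNA-GFP and 3 in CTCF-AID cells, with a summed level of 0.348 to 1.24 TPM in asynchronous cells and up to 4.15 TPM over all stages. Listed markers of other types, in CCNA-GFP and CTCF-AID cells respectively, were 2 and 3 of 5 for trophoblast (up to 2.70 and 3.68 TPM summed in asynchronous cells, and up to 8.66 and 16.9 TPM over all stages), 2 and 2 of 5 for neural cells (up to 1.66 and 3.13 TPM, and 5.55 and 12.1 TPM) and 2 and 3 of 6 for primed epiblast and mesoderm (at most 2.21 and 7.44 TPM, both in asynchronous cells). Summed over all listed genes, libraries held 13746.9 to 43370.2 TPM, and all 55 carried a scaling factor of their own that the sources used here do not name, between 1.84 and 3.81.

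In asynchronous cells, Meg3, a maternally expressed long noncoding RNA, had the highest TPM of the members in both lines, with 14.2, 20.0 and 24.0 TPM in CCNA-GFP and 12.9, 17.6 and 19.4 TPM in CTCF-AID cells without IAA. Kcnq1ot1 came next, with a mean of 7.37 ± 2.04 TPM (SD, n = 3) in CCNA-GFP and 4.997 ± 1.28 TPM (SD, n = 3) in CTCF-AID cells without IAA. The order then ran Peg10, Impact, Peg3, Mest, Igf2r, Snrpn and Grb10 in CCNA-GFP cells, and Peg10, Grb10, Impact, Peg3, Igf2r and Snrpn in CTCF-AID cells. Neighbours in these orders mostly overlapped: only Meg3 above Kcnq1ot1 and Mest above Igf2r were apart in every CCNA-GFP library, and only Meg3 above Kcnq1ot1 and Igf2r above Snrpn in every CTCF-AID library, with and without IAA.

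**Figure D1:**
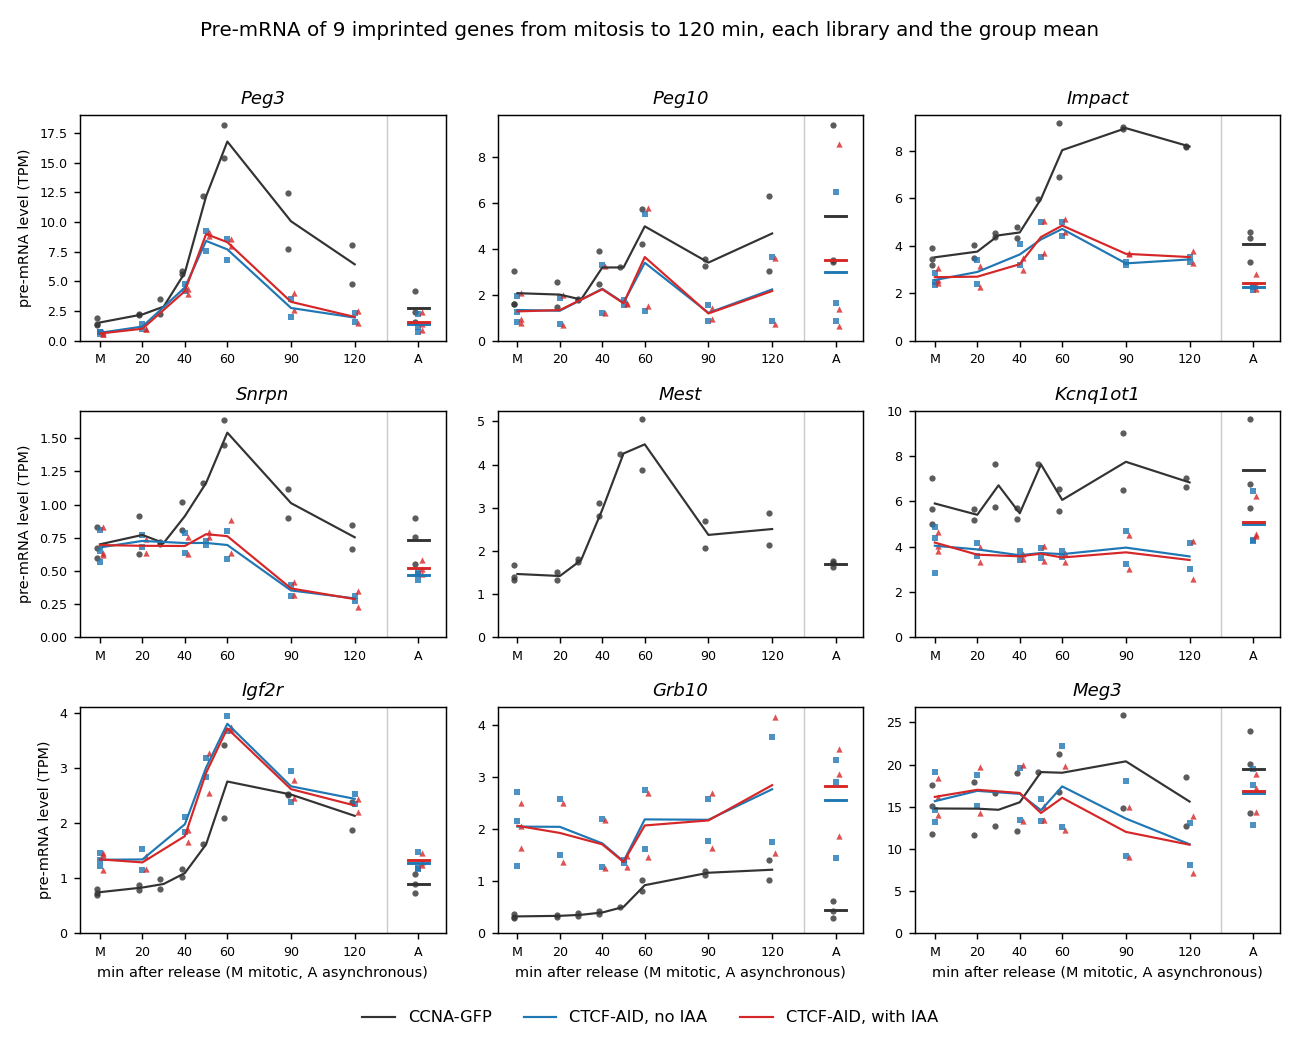
Pre-mRNA level in TPM (y axis, linear) of the 9 listed genes against minutes after release (x axis), with M for mitotic and A for asynchronous cells. Points are libraries, lines and bars the group means, in black for CCNA-GFP, blue for CTCF-AID without IAA and red for CTCF-AID with IAA. Peg3 has the steepest transient, the blue and red lines run together, and Peg10 drops at 50 and 90 min in CTCF-AID cells, times at which replicate 2 was not sampled.

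Most genes of these tables rose between mitosis and 60 min, and the imprinted genes have to be read against that. Of all genes, 88.3% were called higher and 0.515% lower at 60 min in CCNA-GFP cells, with a median log2 fold change of 0.79, and among the members 8 of 9 were called higher and 0 lower, with a median of 0.85. The 8 included Grb10, which was listed for CCNA-GFP cells only through its later post-mitotic libraries. Untreated CTCF-AID cells had 84.8% of all genes called higher and 2.7% lower at 60 min, with a median of 0.63, while 4 of 8 members were called higher and 0 lower, with a median of 0.38. With IAA, 82.2% of all genes were called higher and 4.04% lower, and the same 4 members, Igf2r, Impact, Peg10 and Peg3, were called higher and 0 lower, with a median of 0.35. The share of members called was thus near the background in CCNA-GFP cells and below it in CTCF-AID cells, and no test of that difference was made.

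At 120 min, 90.2% of all CCNA-GFP genes were called higher and 0.656% lower than in mitosis, against 7 of 9 members higher and 0 lower. The background in CTCF-AID cells without IAA was 69.6% higher and 3.15% lower, and 4 of 8 members (Grb10, Igf2r, Impact and Peg3) were called higher and 2 (Meg3 and Snrpn) lower. With IAA the background was 68.2% higher and 4.42% lower, and the same 4 and the same 2 members were called. These counts rest on the deposited scale. After division by the scaling factor, 2 members (Igf2r and Peg3) were called higher at 120 min in CTCF-AID cells without IAA. Meg3 and Snrpn were still called lower there, beside 60.8% of all genes called higher and 3.43% lower. Fewer members were also called higher there without the replicate block or without replicate 2. When each library was given the same total, the all-gene median at 60 min fell to 0.02 in CCNA-GFP and 0.06 in CTCF-AID cells without IAA, and the calls split into 3607 higher and 3302 lower genes and into 4030 higher and 3181 lower genes, in place of 8749 and 51, and 8677 and 276. On that scale only Igf2r and Peg3 were still called higher at 60 min in both lines, while Kcnq1ot1 and Meg3 were called lower in both and Grb10 and Snrpn lower in CTCF-AID cells without IAA. At 120 min on that scale the members called were 3 higher (Grb10, Igf2r and Peg3) and 3 lower (Kcnq1ot1, Meg3 and Snrpn) in CCNA-GFP cells, where 28.7% of all genes were called higher and 23.5% lower, and 2 higher (Igf2r and Peg3) and 4 lower (Impact, Kcnq1ot1, Meg3 and Snrpn) in CTCF-AID cells without IAA, where the shares of all genes were 32% and 25.9%.

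**Figure D2:**
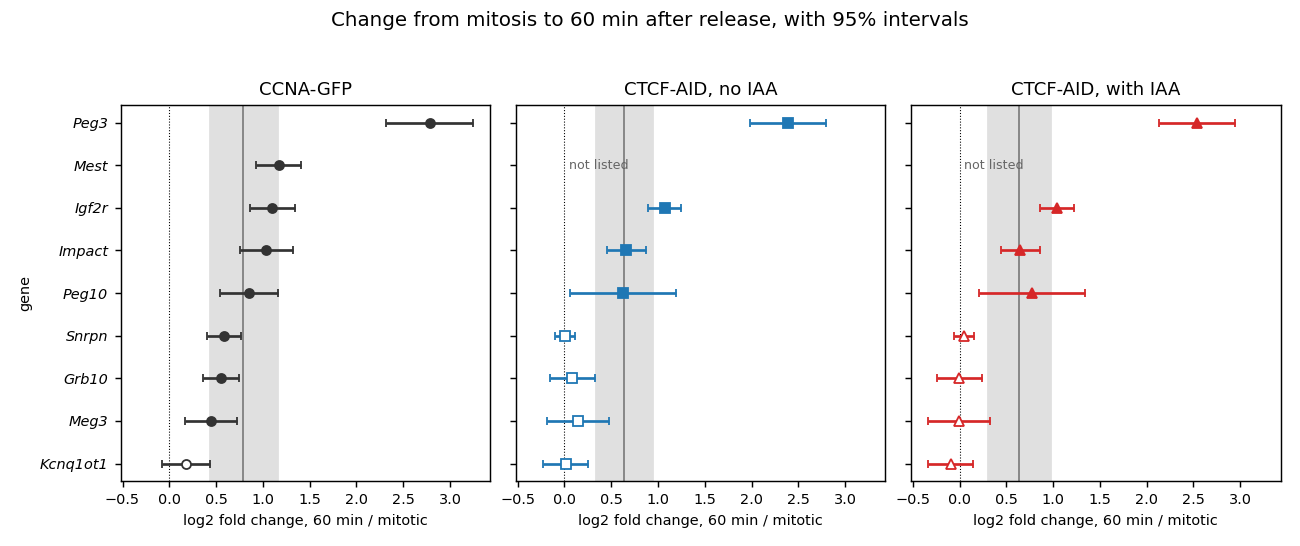
Log2 fold change of log2(TPM + 1) from mitosis to 60 min (x axis) for each gene (y axis) in the 3 series of libraries, with 95% intervals from limma. Filled symbols were called at an adjusted p below 0.05, and the grey line and band give the median and the interquartile range of all genes. Peg3 lies at 2.78, 2.39 and 2.54, to the right of the band in each panel, and Kcnq1ot1 at 0.18, 0.01 and -0.09, to its left. With the same total in every library, Peg10, Impact, Snrpn, Kcnq1ot1 and Meg3 lie below 0 in CCNA-GFP cells, and the same genes and Grb10 in CTCF-AID cells without IAA.

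Peg3 encodes a zinc finger protein that represses other genes and is best known for its role in maternal care and fetal growth; it lies at chr7:6703892-6730431 on the minus strand (positions of all genes here are on build GRCm38, Gencode vM21). In CCNA-GFP cells its level was 1.29, 1.89 and 1.43 TPM in mitosis, 5.84 and 5.62 TPM at 40 min, 18.1 and 15.4 TPM at 60 min, 4.77 and 8.10 TPM at 120 min, and 1.57, 4.22 and 2.44 TPM in asynchronous cells. Both libraries at 60 min stood above all mitotic and asynchronous ones. In CTCF-AID cells without IAA it was 0.696, 0.708 and 0.595 TPM in mitosis, 7.56 and 9.26 TPM at 50 min, 6.79 and 8.60 TPM at 60 min, and 1.55 and 2.35 TPM at 120 min, when it was back in the range of the asynchronous libraries (0.707, 2.28 and 1.15 TPM) or just above it. Peg3 rose at 60 min by a log2 fold change of 2.78 (SE 0.22, adjusted p = 8.1e-10) in CCNA-GFP cells, where it ranked 7 of 9911 genes by size of rise, and by 2.39 (SE 0.20, adjusted p = 1.4e-10) in CTCF-AID cells without IAA, where it ranked 20 of 10237. Relative to the median of all genes these were 1.99 and 1.75, and with the same total in every library Peg3 was still called higher, by 1.72 and 1.75. It also stood 2.28 and 1.93 above asynchronous cells at 60 min (log2 fold changes, adjusted p = 2.8e-08 and 5.5e-09), and at 120 min the difference from asynchronous cells was 0.99 in CCNA-GFP cells (adjusted p = 8.0e-04) and 0.36 in CTCF-AID cells without IAA, not called (adjusted p = 0.12).

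Peg10, derived from a retrotransposon and needed for placenta formation, lies at chr6:4747306-4760517 on the plus strand. In CCNA-GFP cells it was 1.6, 3.02 and 1.6 TPM in mitosis and 4.22 and 5.76 TPM at 60 min, and in CTCF-AID cells without IAA 0.805, 1.95 and 1.27 TPM in mitosis and 1.28 and 5.53 TPM at 60 min. The libraries of replicate 2 were the highest within these groups, and the groups of CTCF-AID cells overlapped. With replicates as a block, Peg10 rose at 60 min by a log2 fold change of 0.85 (SE 0.15, adjusted p = 2.4e-05) in CCNA-GFP and 0.62 (SE 0.27, adjusted p = 0.037) in CTCF-AID cells without IAA, and both turned to -0.18 and -0.02 with the same total in every library. The CTCF-AID call was lost without the block (adjusted p = 0.286), without replicate 1 (adjusted p = 0.173) and without replicate 2 (adjusted p = 0.0523).

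Impact encodes an inhibitor of the translation-control kinase GCN2 and lies at chr18:12955852-12992950 on the plus strand. It was 3.45, 3.19 and 3.91 TPM in mitosis, 9.17 and 6.89 TPM at 60 min and 8.15 and 8.23 TPM at 120 min in CCNA-GFP cells, against 3.31, 4.33 and 4.56 TPM in asynchronous cells, so that no library at 60 or 120 min overlapped the mitotic or asynchronous ones. In CTCF-AID cells without IAA it was 2.87, 2.34 and 2.46 TPM in mitosis, 4.99 and 4.43 TPM at 60 min and 3.33 and 3.52 TPM at 120 min. The rise at 60 min was 1.04 (SE 0.13, adjusted p = 4.0e-07) in CCNA-GFP and 0.66 (SE 0.10, adjusted p = 2.1e-06) in CTCF-AID cells without IAA on the log2 scale, close to that of all genes (0.25 and 0.03 above their median), and it turned to -0.105 and -0.10, not called, with the same total in every library. At 120 min in CCNA-GFP cells it was called higher by 1.07 (adjusted p = 4.7e-07), a call lost with the same total in every library (0.098, adjusted p = 0.323), and in CTCF-AID cells without IAA the higher call at 120 min turned into a lower one on that scale (-0.14, adjusted p = 0.0167). The higher call in CTCF-AID cells was also lost after division by the scaling factor.

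Mest, a hydrolase-like protein of mesodermal tissues, lies at chr6:30723547-30748465 on the plus strand and was listed for CCNA-GFP cells only. It was 1.32, 1.40 and 1.66 TPM in mitosis, 2.81 and 3.10 TPM at 40 min, 4.26 TPM in the 1 library at 50 min, 3.88 and 5.06 TPM at 60 min, and 2.13 and 2.88 TPM at 120 min, with 1.71, 1.75 and 1.63 TPM in asynchronous cells. All libraries from 40 min on stood above the mitotic and asynchronous ones. The rise at 60 min was 1.17 on the log2 scale (SE 0.12, adjusted p = 1.0e-08), or 0.38 above the median of all genes, and with the same total in every library it was 0.22 and no longer called (adjusted p = 0.129). Copg2, which overlaps the end of Mest on the opposite strand, changed by 0.16 at 60 min in CCNA-GFP cells, which missed the threshold (adjusted p = 0.050).

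Snrpn encodes SmN, a core protein of spliceosomal particles, and lies at chr7:59982495-60140219 on the minus strand, within the domain that is homologous to the Prader-Willi region. In CCNA-GFP cells it was 0.592, 0.830 and 0.675 TPM in mitosis, 1.64 and 1.45 TPM at 60 min, and 0.660 and 0.845 TPM at 120 min. In CTCF-AID cells without IAA it was 0.652, 0.805 and 0.569 TPM in mitosis, 0.585 and 0.804 TPM at 60 min, and 0.274 and 0.307 TPM at 120 min, below every mitotic library and below the asynchronous ones (0.428, 0.478 and 0.491 TPM). Snrpn thus rose at 60 min in CCNA-GFP cells by 0.58 on the log2 scale (SE 0.09, adjusted p = 3.2e-06) and was not called in CTCF-AID cells without IAA (0.01, SE 0.05, adjusted p = 0.90). At 120 min it was lower than in mitosis in CTCF-AID cells by a log2 fold change of -0.38 (SE 0.05, adjusted p = 6.8e-07), and in CCNA-GFP cells 0.05 (adjusted p = 0.61). With the same total in every library the CCNA-GFP value at 60 min became -0.11, and the CTCF-AID value at 120 min became -0.64. Library totals of CTCF-AID cells were larger at 120 min than in mitosis, so this scaling could only lower the second value and does not check it. The difference between the lines was not tested, since the tables were normalised separately. The asynchronous means of Snrpn in CTCF-AID cells, 0.465 TPM without and 0.522 TPM with IAA, lay near the authors' filter of 0.5 TPM. Snrpn may thus be listed there through post-mitotic libraries, which the sources used here do not settle.

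The Snrpn gene model shares 6.09% of its length with Snurf on the same strand, which encodes a small protein from the same transcription unit, and 14.3% with Gm38393, a gene model on the same strand listed in neither table, so reads may be split between them and the values of Snrpn and Snurf are uncertain. Snurf had a mean of 3.28 ± 0.58 TPM (SD, n = 3) in mitosis and 12.99 ± 1.27 TPM (SD, n = 2) at 60 min in CCNA-GFP cells, and 3.35 ± 0.51 TPM (SD, n = 3) and 5.61 ± 0.81 TPM (SD, n = 2) in CTCF-AID cells without IAA. Snurf rose at 60 min by 1.76 (SE 0.13, adjusted p = 3.6e-10) and 0.63 (SE 0.10, adjusted p = 2.2e-06), and the second of these became -0.18 with the same total in every library. As for Snrpn, the CCNA-GFP value was the larger one.

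Kcnq1ot1, a paternally expressed noncoding RNA that silences its neighbours on the same chromosome, lies at chr7:143203458-143296549 on the minus strand, wholly inside Kcnq1 on the opposite strand. The gene has a single exon, so its pre-mRNA cannot be told apart from its mature RNA. Exons also cover 58.9% of Meg3, 50.5% of Peg10 and 50.2% of Peg3, so their values may hold some mature RNA. Of the other listed members they cover at most 15.8% (Mest). It was 4.98, 5.68 and 7.06 TPM in mitosis, 6.54 and 5.59 TPM at 60 min, and 5.71, 6.75 and 9.65 TPM in asynchronous CCNA-GFP cells, all overlapping. The CTCF-AID levels without IAA, 2.85, 4.39 and 4.87 TPM in mitosis and 3.53 and 3.80 TPM at 60 min, also overlapped. Kcnq1ot1 was the only member not called at 60 min in both lines (log2 fold change 0.18, SE 0.12, adjusted p = 0.18, and 0.01, SE 0.12, adjusted p = 0.91), and with the same total in every library it was called lower, with -0.997 and -0.77. At 120 min it was called higher in CCNA-GFP cells by 0.33 (adjusted p = 0.017), a call lost when any of the 3 replicates was left out (adjusted p = 0.12, 0.087 and 0.059) and turned to -0.69 with the same total in every library.

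Of the list of further imprinted genes and close neighbours, 5 genes that start within 252.6 kb of Kcnq1ot1 were listed, in both tables. Cdkn1c, Phlda2, Tssc4, Cd81 and Nap1l4 start 164.5, 206.6, 227.3, 243.8 and 252.6 kb from Kcnq1ot1 and were singled out after their values were seen. Cdkn1c, the cyclin-dependent kinase inhibitor p57, had a mean of 0.870 ± 0.265 TPM (SD, n = 3) in mitosis and 5.71 ± 1.07 TPM (SD, n = 2) at 60 min in CCNA-GFP cells, and 0.930 ± 0.176 TPM (SD, n = 3) and 10.4 ± 3.0 TPM (SD, n = 2) in CTCF-AID cells without IAA. Exons cover 100% of Tssc4, 75.2% of Cdkn1c and 69.8% of Phlda2, against 18.95% of Cd81 and 8.71% of Nap1l4, so values of the first named may hold mature RNA. Cdkn1c rose at 60 min by 1.82 and 2.41 on the log2 scale (adjusted p = 4.6e-09 and 8.0e-11), Tssc4 by 1.98 and 2.41, and Cd81, a tetraspanin, by 1.66 and 1.47. Phlda2, which restrains growth of the placenta, rose by 0.54 and 0.72 (adjusted p = 5.8e-05 and 0.0014), and Nap1l4, a histone chaperone, by 0.54 and 0.47 (adjusted p = 9.1e-04 and 1.8e-04), beside medians of 0.79 and 0.63 for all genes. With the same total in every library Cdkn1c, Tssc4, Cd81 and Phlda2 stayed above 0, though Tssc4 was no longer called in CCNA-GFP cells (adjusted p = 0.133) and Phlda2 in neither line (adjusted p = 0.072 and 0.492), and Nap1l4 turned to -0.61 and -0.40. Without replicate 1 or without the block the CCNA-GFP call of Nap1l4 was lost (adjusted p = 0.0613 and 0.0605), and without replicate 2 that of Phlda2 in CTCF-AID cells (adjusted p = 0.101).

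Igf2r, the maternally expressed receptor that takes insulin-like growth factor 2 to the lysosome, lies at chr17:12682406-12769664 on the minus strand. In CCNA-GFP cells it was 0.801, 0.698 and 0.731 TPM in mitosis, 3.42 and 2.09 TPM at 60 min, 2.38 and 1.88 TPM at 120 min, and 0.725, 0.898 and 1.07 TPM in asynchronous cells. The CTCF-AID levels of Igf2r without IAA were 1.33, 1.22 and 1.45 TPM in mitosis, 3.67 and 3.94 TPM at 60 min, 2.53 and 2.35 TPM at 120 min, and 1.19, 1.17 and 1.47 TPM in asynchronous cells. In both lines every library from 60 min on stood above all mitotic and asynchronous ones. The rises at 60 min were 1.10 (SE 0.11, adjusted p = 2.0e-08) and 1.07 (SE 0.09, adjusted p = 1.1e-10) on the log2 scale, and with the same total in every library 0.31 and 0.40, both still called. Airn, the noncoding RNA that silences the paternal Igf2r and runs antisense over 32.5% of the gene, was not called at 60 min, with 0.12 (adjusted p = 0.38) and 0.07 (adjusted p = 0.65).

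Grb10 encodes an adaptor protein that restrains insulin receptor signalling and lies at chr11:11930508-12038683 on the minus strand. In CCNA-GFP cells it was 0.314, 0.365 and 0.281 TPM in mitosis, 0.420 and 0.370 TPM at 40 min, 1.03 and 0.813 TPM at 60 min, and 1.03 and 1.41 TPM at 120 min, and every library from 60 min on stood above those of mitotic and asynchronous cells (0.290, 0.415 and 0.610 TPM). Its asynchronous mean of 0.438 TPM was below the authors' filter of 0.5 TPM. Grb10 was thus listed for CCNA-GFP cells only through its later post-mitotic libraries, and higher values at those times were partly built in. The CTCF-AID levels of Grb10 without IAA were 1.28, 2.71 and 2.15 TPM in mitosis, 1.62 and 2.75 TPM at 60 min and 1.76 and 3.77 TPM at 120 min, with overlap throughout. At 60 min the log2 fold change was 0.55 (SE 0.09, adjusted p = 1.2e-05) in CCNA-GFP cells, and the CTCF-AID value of 0.09 (SE 0.12, adjusted p = 0.49) was not called. Since the authors' filter favoured a later rise of Grb10 in CCNA-GFP cells, no conclusion is drawn from its higher values there at 60 or 120 min. With the same total in every library the CCNA-GFP call was lost (0.064, adjusted p = 0.418) and the CTCF-AID value was called lower, with -0.59. At 120 min the values were 0.76 (adjusted p = 3.7e-07) and 0.30 (adjusted p = 0.028), the second lost without the block (adjusted p = 0.481) or without replicate 2 (adjusted p = 0.295) and turned to -0.12 with the same total in every library.

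Meg3 lies at chr12:109541001-109571726 on the plus strand, at the start of a maternally transcribed stretch that continues into Rian, a host of small nucleolar RNAs, and Mirg, a host of microRNAs. In CCNA-GFP cells Meg3 was 11.8, 17.5 and 15.0 TPM in mitosis, 16.8 and 21.3 TPM at 60 min and 12.7 and 18.5 TPM at 120 min. Without IAA, the CTCF-AID levels of Meg3 were 13.2, 19.1 and 14.6 TPM in mitosis, 12.6 and 22.2 TPM at 60 min and 8.05 and 13.03 TPM at 120 min, where both libraries lay below every mitotic one. Meg3 rose at 60 min in CCNA-GFP cells by 0.45 (SE 0.13, adjusted p = 0.0035), but the call was lost without the block (adjusted p = 0.255), without replicate 1 (adjusted p = 0.145) or after division by the scaling factor, and with the same total in every library the value was -0.84. It was lower at 120 min in CTCF-AID cells without IAA by a log2 fold change of -0.51 (SE 0.16, adjusted p = 0.0066), a call also lost without the block (adjusted p = 0.147), without replicate 1 (adjusted p = 0.0722) or without replicate 2 (adjusted p = 0.0741).

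Rian and Mirg, which start 62.94 and 188.8 kb after Meg3 on the same strand and are given here after their values were seen, were lower at 60 min than in mitosis in both lines, against the trend of most genes. Rian had a mean of 5.36 ± 0.87 TPM (SD, n = 3) in mitosis and 3.78 ± 0.56 TPM (SD, n = 2) at 60 min in CCNA-GFP cells, and 7.96 ± 1.08 TPM (SD, n = 3) and 5.01 ± 1.36 TPM (SD, n = 2) in CTCF-AID cells without IAA. Mirg had 1.65 ± 0.50 and 0.638 ± 0.148 TPM in CCNA-GFP cells, and 2.79 ± 0.58 and 0.939 ± 0.119 TPM in CTCF-AID cells without IAA, with the same numbers of libraries. Rian was lower, with a log2 fold change of -0.36 (SE 0.12, adjusted p = 0.011) in CCNA-GFP and -0.56 (SE 0.14, adjusted p = 8.4e-04) in CTCF-AID cells without IAA. Mirg was lower as well, with -0.72 (SE 0.15, adjusted p = 1.2e-04) and -1.02 (SE 0.11, adjusted p = 5.9e-09). With the same total in every library the values were -1.48 and -1.41 for Rian and -1.45 and -1.64 for Mirg. Library totals were larger at 60 min than in mitosis, so this scaling could only lower these values and does not check the fall. The CCNA-GFP call of Rian was lost without the block (adjusted p = 0.0657), without replicate 1 (adjusted p = 0.0914) or without replicate 2 (adjusted p = 0.151).

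At 120 min, on the deposited scale, Mirg was above its mitotic level, at 5.86 ± 1.18 TPM (SD, n = 2) in CCNA-GFP and 5.23 ± 1.49 TPM (SD, n = 2) in CTCF-AID cells without IAA, near the asynchronous means of 7.02 and 6.10 TPM. Against asynchronous cells, Mirg at 120 min was called lower in CTCF-AID cells without IAA and was not called in CCNA-GFP cells. Its log2 fold changes from mitosis at 120 min were 1.34 (adjusted p = 1.2e-07) and 0.65 (adjusted p = 1.3e-05), and with the same total in every library 0.49 (adjusted p = 0.0099) and 0.20, the second no longer called (adjusted p = 0.0567). Rian at 120 min was called higher in CCNA-GFP cells (0.82, adjusted p = 4.4e-06) and not called in CTCF-AID cells without IAA (-0.23, adjusted p = 0.152), and with the same total these became -0.21, not called (adjusted p = 0.151), and -0.76, called lower (adjusted p = 4.1e-07).

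**Figure D3:**
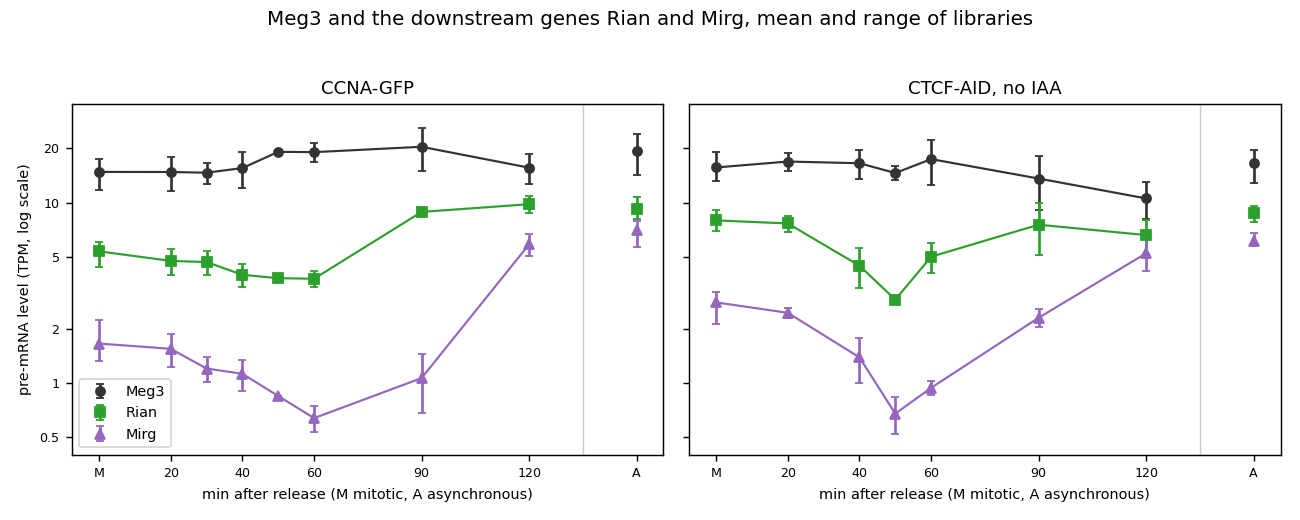
Pre-mRNA level in TPM (y axis, log scale) of Meg3, Rian and Mirg against minutes after release (x axis) in CCNA-GFP cells (left) and CTCF-AID cells without IAA (right), with M for mitotic and A for asynchronous cells. Points are group means and bars the lowest and highest library (no bar for the 1 library at 50 min in CCNA-GFP cells). Mirg reaches its lowest mean of 0.638 TPM at 60 min in CCNA-GFP cells and 0.675 TPM at 50 min in CTCF-AID cells, and Meg3 shows no such dip.

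Beyond the 10 genes, 31 of a list of 70 further imprinted genes and close neighbours were listed in the CCNA-GFP table and 27 in the CTCF-AID table. At 60 min in CCNA-GFP cells 19 of the 31 had a higher call against mitosis and 2 a lower call (Mirg and Rian), with a median log2 fold change of 0.54 beside 0.79 for all genes. Without IAA, 19 of the 27 listed for CTCF-AID cells were called higher and 4 lower, with a median of 0.50 beside 0.63. The 4 were Mirg, Rian, Casd1 and Ppp1r9a, of which the last pair lies within 155.6 kb of Peg10 on the same strand and had log2 fold changes of -0.13 and -0.27. Of 11 factors that keep imprints, such as Zfp57, Trim28 and Dnmt1, 9 were listed in CCNA-GFP cells with 8 called higher at 60 min, and 10 in CTCF-AID cells with 9 called higher without IAA, both near the shares of all genes (88.3% and 84.8%).

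Whether loss of CTCF altered the imprinted genes was asked by comparing CTCF-AID cells with and without IAA in a limma fit of all 36 libraries without a block, and a gene was called at an adjusted p below 0.1 and an absolute log2 fold change above 0.2. IAA acts on the CTCF protein, which these files do not measure, so the Ctcf pre-mRNA does not check the depletion. Ctcf was 6.54, 6.11 and 9.13 TPM without and 7.52, 7.77 and 10.9 TPM with IAA in asynchronous cells, a log2 fold change of 0.24 (SE 0.15, adjusted p = 1).

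None of the 8 listed members was called between the arms at any stage. In asynchronous cells 1.01% of all genes were called and 0 of 8 members, and in mitotic cells, at 20 min and at 40 min 0% of all genes and 0 of 8 members. The study itself, with DESeq2 on counts, reported a group of genes that respond to CTCF depletion early after release. The 0% at 20 and 40 min in this fit therefore does not show that no gene responded early. At the 50, 60, 90 and 120 min times the shares of all genes were 0.283%, 0.225%, 0.733% and 0.586%, each with 0 of 8 members. Averaged over 20 to 120 min 1.72% of all genes were called, 38 with higher and 138 with lower values with IAA, and 0 of 8 members. The difference between that mean and the effect in asynchronous cells was called for 0.00977% of genes, and that between mitotic and asynchronous cells for 0.0586%, again with 0 of 8 members. Asynchronous and mitotic cells also differed in the length of IAA treatment. The unadjusted p of the members was below 0.05 in 0 of 8 cases in each of these comparisons, the lowest being 0.343, and with the replicate block there were also 0 calls, with a lowest unadjusted p of 0.221. At backgrounds of this size no call would be the usual outcome for a list of 8 genes.

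The intervals say how large an effect the fit without the block could have missed. That fit leaves out that libraries of the same replicate number varied together. Averaged over 20 to 120 min, the log2 fold change with IAA was 0.03 (95% interval -0.18 to 0.24) for Peg3, 0.01 (-0.58 to 0.59) for Peg10, 0.00 (-0.13 to 0.14) for Impact and 0.01 (-0.06 to 0.09) for Snrpn. For Kcnq1ot1 it was -0.05 (-0.23 to 0.14), for Igf2r -0.05 (-0.14 to 0.05), for Grb10 -0.03 (-0.31 to 0.26) and for Meg3 -0.05 (-0.33 to 0.23). Without the block, Snrpn, Impact and Igf2r thus had intervals within 0.2 on either side of 0, the size used for calls, and Peg10 had the widest interval. These intervals are on log2(TPM + 1), which understates the change of low genes. Snrpn was at 0.223 to 0.886 TPM in the CTCF-AID libraries, so its interval does not limit its change in log2 TPM to 0.2. With the replicate block, the intervals narrowed to -0.24 to 0.25 for Peg10, -0.13 to 0.08 for Grb10, -0.19 to 0.10 for Meg3 and -0.15 to 0.06 for Kcnq1ot1. Those of Grb10, Meg3 and Kcnq1ot1 then also lay within 0.2 on either side of 0. In asynchronous cells the effects without the block ran from 0.01 for Peg10 (-1.16 to 1.17) to 0.13 for Peg3 (-0.29 to 0.55). With the block these intervals were -0.49 to 0.50 for Peg10 and -0.22 to 0.49 for Peg3.

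Library by library the arms stayed close. Peg3 with IAA was 0.532, 0.711 and 0.586 TPM in mitosis, 9.13 and 8.83 TPM at 50 min, 8.01 and 8.59 TPM at 60 min, and 1.47 and 2.54 TPM at 120 min, overlapping the values without IAA at each of these stages. Igf2r with IAA was 3.70 and 3.74 TPM and Meg3 12.3 and 19.8 TPM at 60 min, again within or near the range without IAA. Over the 18 pairs of libraries that share stage and replicate, the ratio of TPM with to without IAA ran from 0.871 to 1.09 for Igf2r, 0.814 to 1.21 for Snrpn, 0.850 to 1.21 for Impact, 0.827 to 1.22 for Meg3, 0.875 to 1.29 for Grb10, 0.721 to 1.33 for Peg10, 0.733 to 1.34 for Peg3 and 0.865 to 1.42 for Kcnq1ot1. The library with IAA was the higher one in 6 pairs for Kcnq1ot1, the fewest, and in 13 for Impact, the most. Of the 27 further imprinted genes 0 were called with IAA at any stage or in the mean, and Rian and Mirg had mean effects of -0.06 (adjusted p = 1.0) and -0.14 (adjusted p = 1.0).

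**Figure D4:**
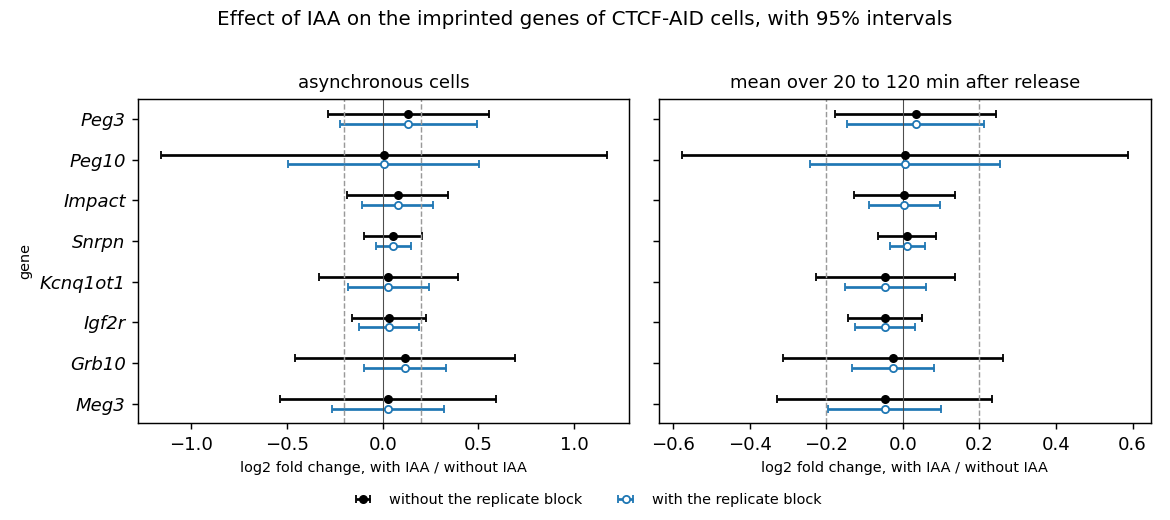
Log2 fold change with against without IAA (x axis) of the 8 members listed for CTCF-AID cells (y axis) in asynchronous cells (left) and averaged over 20 to 120 min (right), with 95% intervals from limma without (black) and with (blue) the replicate block. Dashed lines mark 0.2 on either side of 0. Every interval includes 0, and that of Peg10 without the block is the widest in both panels.

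Replicates of the same group also differed for some members. Peg10 in asynchronous cells was 3.45, 9.42 and 3.52 TPM in CCNA-GFP, 0.874, 6.47 and 1.64 TPM in CTCF-AID without IAA and 0.630, 8.58 and 1.40 TPM with IAA, replicate 2 being the highest each time. Replicate 2 held 2.73, 7.41 and 13.6 times the Peg10 TPM of replicate 1 in these cells, ratios at the 97.5, 99.7 and 99.8 percentiles of all genes. Peg3 in asynchronous cells was likewise highest in replicate 2, with ratios of 2.69, 3.23 and 2.55. Over all shared stages, Peg10 and Meg3 were higher in replicate 2 than in replicate 1 in 6 of 6 CCNA-GFP and 12 of 12 CTCF-AID pairs, and Grb10 in 12 of 12 CTCF-AID pairs (ratios 1.53 to 2.70) but 4 of 6 CCNA-GFP pairs. Snrpn was higher in replicate 2 in 5 of 6 and 12 of 12 pairs, Kcnq1ot1 in 5 of 6 and 11 of 12, and Peg3 in 3 of 6 and 9 of 12. Mest was higher in replicate 2 in 5 of 6 CCNA-GFP pairs. Igf2r was higher in replicate 2 in 1 of 6 and 3 of 12 pairs, and Impact in 2 of 6 and 2 of 12.

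Markers of cell state differed between the same libraries. The summed TPM of the listed ES cell markers in asynchronous cells was lowest in replicate 2 in CCNA-GFP (108.4, 76.3 and 149.9 in replicates 1, 2 and 3), in CTCF-AID without IAA (139.9, 85.6 and 166.7) and with IAA (136.0, 83.6 and 150.6). The summed TPM of the listed markers of primed epiblast and mesoderm (2 of 6 in CCNA-GFP and 3 of 6 in CTCF-AID cells) was highest in replicate 2, with 1.16, 2.21 and 0.378 in CCNA-GFP, 3.81, 5.15 and 1.81 without IAA and 3.92, 7.44 and 1.70 with IAA. The listed trophoblast markers were likewise highest in replicate 2, with 1.19, 2.70 and 1.42 TPM in CCNA-GFP, 2.10, 2.72 and 2.36 TPM without IAA and 2.15, 3.68 and 2.60 TPM with IAA. The listed neural markers were lowest in replicate 2, with 1.57, 0.991 and 1.66 TPM in CCNA-GFP, 2.49, 1.26 and 3.13 TPM without IAA and 2.52, 1.21 and 2.62 TPM with IAA, and so were the 3 fibroblast markers of the CTCF-AID table. The part of these lists in the Peg10 and Peg3 values was not tested, and in these bulk libraries fewer cells that express a gene and less RNA per cell cannot be told apart.

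**Figure D5:**
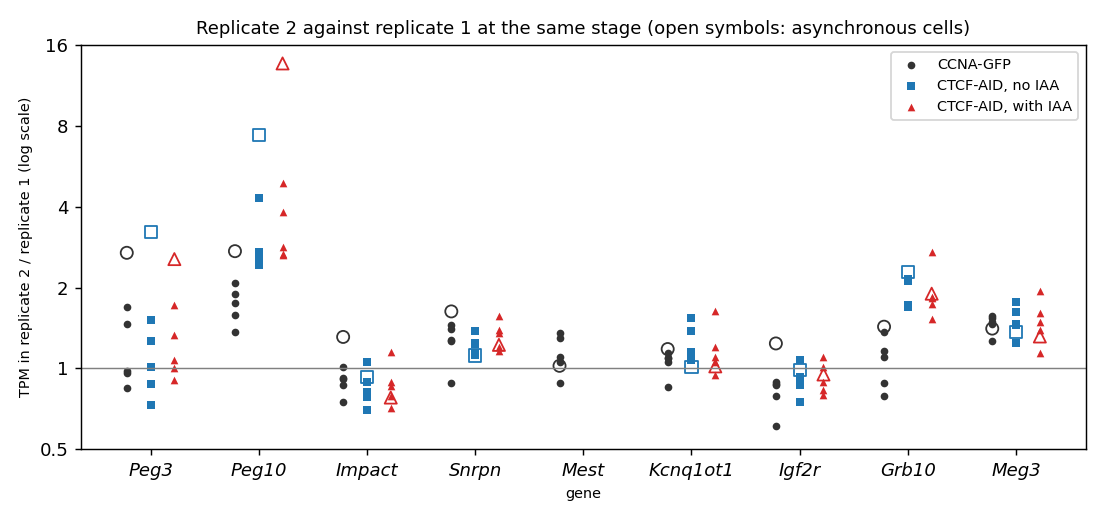
Ratio of TPM in replicate 2 to replicate 1 at the same stage (y axis, log scale) for each gene (x axis), 1 point per stage that both replicates share, with open symbols for asynchronous cells. Black circles are CCNA-GFP, blue squares CTCF-AID without IAA and red triangles CTCF-AID with IAA. All Peg10 points lie above 1, up to 13.6 in asynchronous cells with IAA, whereas most Igf2r and Impact points lie below 1.

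Between the lines, levels in asynchronous cells are given side by side. Grb10 was 0.438 ± 0.161 TPM (SD, n = 3) in CCNA-GFP and 2.56 ± 0.98 TPM (SD, n = 3) in CTCF-AID cells without IAA, a ratio of means of 5.84 with no overlap of libraries. Igf2r was also higher in CTCF-AID cells, with a ratio of 1.42, and Impact and Snrpn were lower, with ratios of 0.552 and 0.633, all without overlap. Peg10, Peg3, Kcnq1ot1 and Meg3 overlapped between the lines. The tables were normalised separately, and the CTCF-AID line is 1 clone, so that a difference of line, clone, table and experiment cannot be told apart.

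The genes most like each member across the 16 CTCF-AID group means, by Pearson's r of log2(TPM + 1), are given as a description, since these groups share replicates and the common time course. They were Tmbim6 for Peg3 (r = 0.996, beside a median of 0.805 over all genes), Hlf for Igf2r (0.994, median 0.790), Notch1 for Impact (0.986, median 0.765) and Lin28a for Snrpn (0.988, median -0.00884). For Kcnq1ot1 it was Slc39a11 (0.982, median -0.345), for Grb10 Zmynd11 (0.955, median -0.293), for Peg10 Krt18 (0.919, median 0.310) and for Meg3 Lrrn2 (0.902, median -0.235). The medians of Peg3, Igf2r and Impact were the highest, and those of Kcnq1ot1, Grb10, Meg3 and, just below 0, Snrpn were negative.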

How the data were processed

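Ribosomal RNA-depleted, stranded, paired-end libraries were aligned by the authors with STAR to mm10 and quantified with RSEM on Gencode vM12, with 1 added pre-mRNA isoform per gene spanning its longest isoform. Versions of STAR and RSEM are not given in the sources used here. The deposited values are TPM of that isoform per library, and the authors kept RefSeq curated genes above 0.5 TPM on average in the asynchronous libraries or in 2 or more post-mitotic samples. The authors used DESeq2 on rounded counts for their own comparisons, which were not used here. In all 55 libraries 100% of values below 1 TPM were whole multiples of a library's own step (within 2% of a step), so each library appears multiplied by a factor after rounding to 0.01 TPM. The sources used here do not name that factor, and results were also computed after dividing it out. TPM were read by gene symbol, and columns were matched to samples by their names. For asynchronous CTCF-AID cells the column names in the file are garbled, and they were matched through the same columns in the study's own data set listing.

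Differences were tested with limma 3.58.1 in R 4.3.3 (linear models, empirical Bayes with trend) on log2(TPM + 1), with no filter, for all genes of each table and with the Benjamini-Hochberg adjustment. Time courses used the replicate number as a block (19 CCNA-GFP and 36 CTCF-AID libraries). The comparison of IAA used no block, since the study's methods name none, with the block as an alternative. Libraries with the same replicate number deviated together from their group means: the correlation exceeded 0.1 in 20 of 20 pairs of CCNA-GFP groups (r up to 0.802, median 0.555), and all 88 CTCF-AID group pairs passed too (median 0.523), so the numbers were taken to pair the libraries. The alternatives were a pseudocount of 0.1, leaving out genes whose mean was below 1 TPM, the same total in every library, division by the scaling factor, the fit with or without the block, each replicate left out, and, for IAA, only the libraries of that stage. The script was tested on simulated data. Tables were made in Python 3.11.15 with pandas 2.3.3, numpy 2.4.6 and scipy 1.17.1, and plots with matplotlib 3.10.9. Gene positions are from Gencode vM21 and promoters from RefSeq (GRCm38.p6).

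The genes named are the 10 imprinted genes, Ctcf, the most similar gene per member, and, of the further imprinted genes, any called with IAA, of which there were none. Neighbours of members given by name were chosen after their values were seen, and factors and markers are named only as examples of their lists. Members and lists were chosen with earlier results of these data known.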

Additional observations from a re-analysis of the deposited data

Results flagged for a closer look

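For 3 members the change from mitosis went opposite ways in the 2 lines in every replicate on the deposited scale. Of the 9574 genes in both tables, the shares that did so at the 40, 60, 90 and 120 min times were 3.29%, 1.31%, 4.29% and 4.55%, beside 2, 1, 1 and 2 of 8 members. At 20 min and in asynchronous cells 4.54% and 7.19% of genes did so, and 0 of 8 members each time. With the same total in every library, opposite directions held for 0 of the 6 pairs of gene and stage given here, since all of these ratios to mitosis were then below 1 in both lines. The values below are the mean difference in log2(TPM + 1) from the mitotic library of the same replicate, CCNA-GFP minus CTCF-AID without IAA, over 2 libraries in each line. None of these differences was tested, since the tables were normalised separately. Snrpn was above its mitotic library in CCNA-GFP cells and below it in CTCF-AID cells at 40 min (difference 0.18), 60 min (0.60), 90 min (0.55) and 120 min (0.46). At 120 min the ratios to mitosis were 1.12 and 1.02 in CCNA-GFP and 0.420 and 0.382 in CTCF-AID cells, while the CTCF-AID ratios were 0.9697 and 0.9749 at 40 min, close to 1, and 0.896 and 0.998 at 60 min. Of the 4 gaps to the mitotic library behind each stage, those smaller than the larger rounding step of the 2 libraries compared were 2 for Snrpn at 40 min (both CTCF-AID libraries), 1 at 60 min (CTCF-AID), 1 at 120 min (CCNA-GFP) and 0 at 90 min. Grb10 differed in the same sense at 40 min (0.17), with ratios of 1.34 and 1.01 in CCNA-GFP and 0.986 and 0.806 in CTCF-AID cells, and the gaps behind 1.01 and 0.986 were also smaller than that step. Meg3 differed at 120 min (0.67), with ratios of 1.08 and 1.06 in CCNA-GFP and 0.609 and 0.681 in CTCF-AID cells.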

How the results depend on the processing

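With TPM the depth behind each value is unknown, and with 2 or 3 libraries per group only effects beyond their spread can be seen. Of 559 alternative values of single genes, 485 kept their direction and their side of the threshold, 39 changed sign, 33 lost and 2 gained a call, and the causes were not tested. The members' IAA effects, in the mean and in asynchronous cells, gave 0 calls in 134 alternative fits, and 0 of 8 members were called at each stage in every setting run. The lowest adjusted p of a member was 0.745, with the replicate block.

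With the same total in every library, the members called higher and lower were 2 and 2 (CCNA-GFP, 60 min), 3 and 3 (120 min), 2 and 4 (CTCF-AID without IAA, 60 min), 2 and 4 (120 min), 2 and 5 (with IAA, 60 min) and 2 and 4 (120 min). The shares of all genes called higher and lower were, in the same order, 36.4% and 33.3%, 28.7% and 23.5%, 39.4% and 31.1%, 32% and 25.9%, 40.7% and 33.2%, and 33.5% and 28.7%. In the same setting the log2 fold changes that reversed at 60 min in CCNA-GFP cells were Peg10 -0.18, Impact -0.105, Snrpn -0.11, Kcnq1ot1 -0.997, Meg3 -0.84 and Nap1l4 -0.61, and at 120 min Peg10 -0.15, Snrpn -0.49, Mest -0.24, Kcnq1ot1 -0.69, Meg3 -0.94 and Rian -0.21. In CTCF-AID cells without IAA they were, at 60 min, Peg10 -0.016, Impact -0.10, Snrpn -0.40, Grb10 -0.59, Kcnq1ot1 -0.77, Meg3 -0.79, Snurf -0.18 and Nap1l4 -0.40, and at 120 min Peg10 -0.15, Impact -0.14 and Grb10 -0.12, with Peg10 at -0.0098 for IAA in asynchronous cells.

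After division by the scaling factor, 2 members (Igf2r and Peg3) were called higher and 2 (Meg3 and Snrpn) lower at 120 min in CTCF-AID cells without IAA (60.8% and 3.43% of all genes), 2 were called higher with IAA (62.4%), and the mean IAA effects of Grb10 and Meg3 became 0.011 and 0.0042. With genes of a mean of at least 1 TPM, 1 member was called lower at 120 min without IAA and 1 with IAA (3.15% and 4.24% of all genes), since Snrpn was filtered out. With a pseudocount of 0.1 the IAA effect on Peg10 in asynchronous cells was -0.077.

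Without the replicate block, 2 members were called higher and 1 lower at 120 min in CTCF-AID cells, both without IAA (42.3% and 1.7% of all genes) and with IAA (43.7% and 2.57%), and Kcnq1ot1 at 60 min without IAA was -0.088. For IAA over all genes, the block raised the calls in asynchronous cells from 32 higher and 71 lower to 92 and 157, and in the mean over 20 to 120 min from 38 and 138 to 46 and 171, with 0 members in each.

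With each replicate left out in turn, members called at 120 min in CTCF-AID cells ranged from 2 to 4 higher and 1 to 2 lower without IAA, and from 2 to 4 higher and 1 to 3 lower with IAA, the fewest higher calls (2) being without replicate 2 in both. Over all genes the higher and lower shares ranged from 50.8% to 69.1% and 1.48% to 3% without IAA, and from 41.5% to 76.8% and 1.39% to 5.86% with IAA, also with the fewest higher calls without replicate 2. Values that changed sign ranged from -0.031 to 0.047 (Snrpn) and -0.074 to 0.114 (Kcnq1ot1) at 60 min and from -0.070 to 0.024 (Kcnq1ot1) at 120 min without IAA. For the mean IAA effect they ranged from -0.0096 to 0.026 (Peg10), -0.016 to 0.028 (Impact) and -0.056 to 0.026 (Grb10), and for asynchronous cells from -0.17 to 0.11 (Peg10) and -0.034 to 0.12 (Meg3).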
